A study of Mus musculus with 10 samples.

Results

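Memory B cells of the mouse are commonly told apart from naive B cells by surface proteins, and 10 genes of this kind are described here across the genotypes of the study. They are Nt5e, Cd80, Pdcd1lg2, Cd86, Cd44, Cd38 and Cd27, together with Entpd1, Ada and Adora2a, which act around Nt5e in the handling of extracellular adenosine. They were chosen by symbol, and 8 of the 10 were measured, on 9 probe sets (groups of probes that read the same transcript), among 19937 genes in all. Cd38 and Adora2a were not analysed here. The list was drawn up with differences between floxed and wild-type arrays already known, Nt5e and Cd80 among them, so floxed against wild-type is given for these genes as a description without a test.

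RNA came from splenic B cells sorted as B220+CD22+ and was read on 10 Affymetrix Mouse Gene 1.0 ST arrays. All mice had the strain label CBAxC57BL/6J, and the labels state no age. The 3 wild-type arrays carried no transgene by their label. The 3 floxed arrays came from Sca1-Bcl6(floxed) mice, whose transgene places mouse Bcl6 and an IRES-eGFP reporter between loxP sites in the pLy6 vector, under control of the Sca1 (Ly6a) gene. The 4 delta arrays came from Sca1-Bcl6(delta) mice, in which the floxed transgene had been crossed to mb1-Cre, a Cre expressed in the B lineage. Independent transgenic lines were made, and the labels do not say which line, or how many animals, an array stands for, so p-values measure the spread between these samples only. The comparisons ask what differs in splenic B cells when the transgene is intact, and what still differs once it has met Cre in the B lineage.

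CD73, the protein of Nt5e, is an enzyme on the cell surface that turns extracellular AMP into adenosine. CD39, the protein of Entpd1, acts before it by splitting ATP and ADP to AMP, and adenosine deaminase, the product of Ada, acts after it by turning adenosine into inosine. CD80 and CD86 are ligands of CD28 and CTLA-4 on T cells, and PD-L2, the protein of Pdcd1lg2, is a ligand of PD-1. CD73, CD80 and PD-L2 are used in combination to divide mouse memory B cells into subsets.

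Promoter windows of Nt5e and Cd80 are shown because these genes had the widest spread of the 8 and followed each other across the arrays. The sequences are RefSeq's on GRCm38.p6, the 250 bases before the start that its promoter table uses, on the plus strand, and capitals mark CpG dinucleotides. The Nt5e stretch lies at chr9:88327359-88327608, and the Cd80 stretch at chr16:38458683-38458932, where that start lies 1503 bases inside the annotated span of Cd80.
Nt5e: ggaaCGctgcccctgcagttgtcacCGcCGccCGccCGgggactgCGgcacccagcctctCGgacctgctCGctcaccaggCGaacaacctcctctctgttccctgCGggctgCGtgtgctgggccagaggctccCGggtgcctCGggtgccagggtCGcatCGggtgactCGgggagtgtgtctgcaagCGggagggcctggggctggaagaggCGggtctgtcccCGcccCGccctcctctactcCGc
Cd80: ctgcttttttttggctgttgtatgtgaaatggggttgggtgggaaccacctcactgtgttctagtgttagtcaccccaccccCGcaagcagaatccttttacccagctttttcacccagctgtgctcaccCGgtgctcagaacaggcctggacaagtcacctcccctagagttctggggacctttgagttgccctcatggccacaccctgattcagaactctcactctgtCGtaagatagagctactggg
The Nt5e stretch was 72% G and C with 21 CpG, and 93.1% of 32851 promoters of the same length in the RefSeq table had a lower G and C content. The Cd80 stretch was 52.8% G and C with 3 CpG, and 51.1% of promoters had a lower content. The letters of 4 motifs, chosen after the levels were seen, were searched on both strands: a T-box site (GGTGTGA), a BCL6 and STAT type site (TTCNNNGAA), an NF-kappaB site and the half-site of a cAMP response element (TGACG). None of these letters occurred in the Nt5e or Cd80 stretch, which says only that they are not in these windows. Across all promoters the motifs occurred in 3.33%, 7.02%, 1.41% and 17.8%. The promoters of 8 of the 10 genes were in the table, as 9 windows. The BCL6 and STAT type letters occurred in 1 of these windows, that of Ada at chr2:163750240-163750489 on the minus strand, shown with the match in capitals, which starts at position -90 from the gene start.
Ada: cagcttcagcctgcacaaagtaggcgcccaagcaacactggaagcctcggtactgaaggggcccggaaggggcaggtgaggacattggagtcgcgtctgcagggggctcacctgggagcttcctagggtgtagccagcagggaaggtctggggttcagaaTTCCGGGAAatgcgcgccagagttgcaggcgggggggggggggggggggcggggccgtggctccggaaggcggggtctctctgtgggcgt
Half-site letters of the cAMP response element occurred in both Entpd1 windows, at positions -135 and -183 from the start that each window uses. The start for the match at -183 lies 47404 bases inside the annotated span of Entpd1.

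Some features of the arrays bear on every result below. Array medians of RMA intensity (robust multi-array average, the summary of a probe set's brightness) ran from 139 to 145, and log2 of RMA intensity is called the level of a gene. The sorted cells carried B cell genes at high levels, with a mean of 12.64 to 12.81 per array over the 12 measured genes of a B cell defining list (Cd79a, Cd22, Ms4a1 and others). Among them Cd79a had a mean of 12.87 in delta, 13.35 in wild-type and 13.27 in floxed arrays, with every delta array below all others. In delta against wild-type 10 of the 12 genes were lower in mean and 2 higher. A set of 19 genes of other tissues, such as Alb and Ins2, had mean levels between 3.72 and 7.19, with a median of 6.21, which gives a rough guide to the level of a probe set with little specific signal. By Xist and the Y-linked Uty, Kdm5d and Eif2s3y, all 3 floxed arrays and delta 1 had a male pattern, while all 3 wild-type arrays and delta 2, 3 and 4 had a female one. Floxed against wild-type is thus also male against female, and these cannot be told apart there. Delta 4 had the most genes above the other delta arrays, with 27 genes at least 1 log2 unit above all of them, against 9, 5 and 1 genes for delta 1, 2 and 3. In the other direction delta 1 led, with 13 genes at least 1 log2 unit below all others, against 2, 3 and 6 for delta 2, 3 and 4. Bcl6 itself, averaged by group, was at 10.05 ± 0.38 for wild-type (SD, n = 3), 9.88 ± 0.08 for floxed (SD, n = 3) and 9.70 ± 0.14 for delta (SD, n = 4).

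Nt5e was the member with the widest range. Its level was 6.97, 6.61 and 7.13 in wild-type 1, 2 and 3, then 8.96, 9.65 and 9.22 in floxed 1, 2 and 3, and 8.08, 8.18, 8.60 and 9.98 in delta 1, 2, 3 and 4. Every floxed and every delta array lay above every wild-type array, while delta 4 lay above all floxed arrays and the other delta arrays below them. Mean RMA intensity was 121 ± 21.4 for wild-type (SD, n = 3), 632 ± 156 for floxed (SD, n = 3) and 490 ± 350 for delta (SD, n = 4). The floxed mean of Nt5e was 2.37 log2 units above that of wild-type arrays. The wild-type levels of Nt5e, and of Cd80 in wild-type 1 and 2, lie within the range of the other-tissue genes, so no fold is given for either gene. Over all 10 arrays the SD of the Nt5e level was 1.16, which ranked 19th among the 19937 genes. This spread includes the floxed difference known when the gene was chosen, so the rank is a description only.

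In delta against wild-type, Nt5e was 1.81 higher on the log2 scale, with a 95% confidence interval (CI) of 0.98 to 2.63. The adjusted p was 0.161 (limma with Benjamini-Hochberg adjustment over all genes), above the threshold of 0.05, with 4 of 4 delta arrays above the wild-type range. That p turned on delta 4. Without delta 4 the difference of Nt5e was smaller, at 1.38, but its SE fell from 0.37 to 0.19 and the adjusted p was 0.0410, the lowest of all alternatives, which ran from 0.0410 to 0.427. Among arrays of female pattern, delta 2, 3 and 4 were 2.02 above the 3 wild-type arrays (SE 0.41, limma adjusted p = 0.353).

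Entpd1, whose product supplies the substrate of CD73, differed in the same direction by less. Its level was 9.41, 9.29 and 9.49 in wild-type arrays, 9.71, 9.90 and 10.15 in floxed arrays and 9.74, 9.58, 9.72 and 10.08 in delta arrays, in replicate order. No wild-type array reached the lowest floxed or delta array, and delta 4 was the highest delta array. The floxed mean of Entpd1 was 0.53 above wild-type, and delta against wild-type gave 0.39 (95% CI 0.11 to 0.66, limma adjusted p = 0.416).

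Ada, which removes adenosine, had levels close together in all groups. They were 7.53, 7.34 and 7.39 in wild-type, 7.53, 7.70 and 7.39 in floxed and 7.79, 7.59, 7.76 and 7.54 in delta arrays. The delta arrays lay just above the wild-type range and floxed arrays overlapped both. Ada in delta against wild-type was 0.25 higher (95% CI 0.05 to 0.45, limma adjusted p = 0.492), and floxed lay 0.12 above wild-type. Delta 4, the highest delta array for Nt5e and Entpd1, was the lowest for Ada.

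Cd80 followed Nt5e across the arrays. Its level was 7.04, 7.16 and 7.43 in wild-type, 8.62, 9.21 and 9.03 in floxed and 8.05, 7.78, 8.64 and 9.84 in delta arrays. All floxed and delta arrays again lay above all wild-type arrays, floxed 2 was the highest floxed array, and delta 4 lay above every floxed array. The floxed mean of Cd80 was 1.74 above that of wild-type, and its SD over all arrays ranked 35th among the 19937 genes. That rank, too, includes the difference known when Cd80 was chosen. In delta against wild-type Cd80 was 1.36 higher (95% CI 0.53 to 2.20, limma adjusted p = 0.329). Without delta 4 this became 0.94 (adjusted p = 0.315). A further Cd80 probe set (10435712) gave means of 7.42 ± 0.27 for wild-type (SD, n = 3), 8.62 ± 0.17 for floxed (SD, n = 3) and 8.32 ± 0.82 for delta (SD, n = 4), and its difference in delta against wild-type was 0.90 (SE 0.34, limma adjusted p = 0.507). In this probe set delta 1 and delta 2, at 7.71 and 7.67, lay within the wild-type range of 7.24 to 7.73, so for it the delta and wild-type arrays overlapped.

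Cd86 and Pdcd1lg2 had smaller differences in mean than Cd80. Cd86, a ligand that B cells raise on activation, was at 9.40, 9.41 and 9.64 in wild-type, 9.71, 10.12 and 9.80 in floxed and 9.84, 9.56, 10.04 and 10.21 in delta arrays. The floxed arrays lay above the wild-type range, and delta 2 lay within it. Cd86 was 0.40 higher in floxed than in wild-type means and 0.43 higher in delta (95% CI 0.11 to 0.75, limma adjusted p = 0.449).

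Pdcd1lg2 was at 8.20, 7.75 and 8.0 in wild-type, 8.15, 8.60 and 8.52 in floxed and 8.33, 8.19, 8.11 and 8.62 in delta arrays. The groups overlapped in both comparisons with wild-type, through wild-type 1. Its mean was 0.44 higher in floxed than in wild-type arrays and 0.33 higher in delta arrays (95% CI 0.01 to 0.65, limma adjusted p = 0.615). Whether Pdcd1lg2 differed less than the other subset markers, Nt5e and Cd80, was not tested.

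Cd44, the receptor for hyaluronan that is raised on many antigen-experienced lymphocytes, overlapped in all groups. Its levels were 9.25, 9.59 and 9.0 in wild-type, 9.41, 9.88 and 9.57 in floxed and 9.66, 9.14, 9.36 and 9.83 in delta arrays. Delta against wild-type gave 0.22 (95% CI -0.17 to 0.61, limma adjusted p = 0.843), and the floxed mean was 0.34 above wild-type.

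Cd27, the receptor of CD70 and a memory marker of human rather than mouse B cells, had a pattern of its own. Its levels were 6.37, 6.47 and 6.53 in wild-type, 6.98, 6.29 and 7.14 in floxed and 6.30, 6.33, 6.47 and 6.28 in delta arrays, within the range of the other-tissue genes. Floxed 1 and floxed 3 lay above all other arrays, and floxed 2, the highest floxed array for 6 of the 8 members, was the lowest for Cd27. In delta against floxed Cd27 was at -0.45 (SE 0.16, limma adjusted p = 0.724), and without floxed 2 at -0.71 (SE 0.08, adjusted p = 0.0333), past the threshold. Over its alternatives that adjusted p ran from 0.0333 to 0.984. Delta against wild-type gave -0.11 (95% CI -0.46 to 0.24, adjusted p = 0.933).

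**Figure D1:**
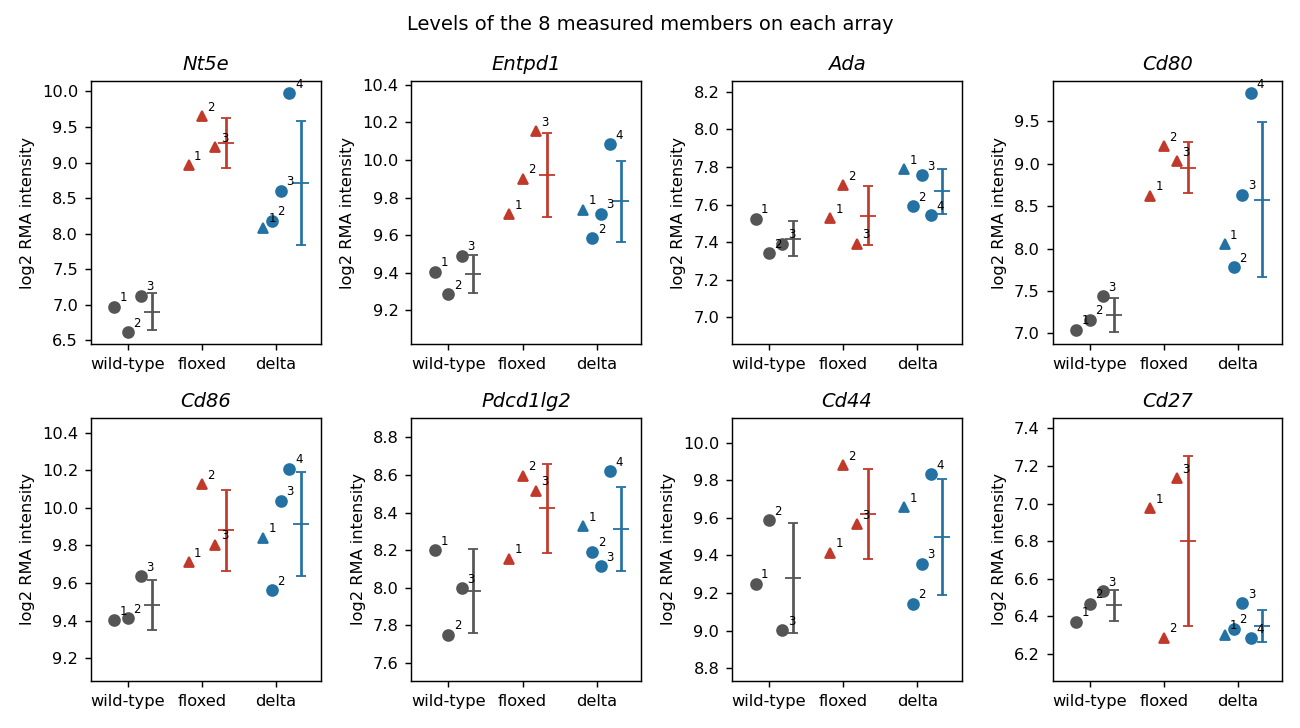
Level (log2 RMA intensity) of each measured member on the 10 arrays, with replicate numbers beside the points, triangles for arrays of male pattern and circles for arrays of female pattern, and bars for mean ± SD of each group (n = 3, 3 and 4); the vertical axes differ between genes. Each gene is shown by the probe set used in the fit. On these, Nt5e and Cd80 are separated from wild-type in every floxed and delta array, with delta 4 highest. Cd27 is high only in floxed 1 and floxed 3.

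T cells carry CD27, CD44 and CD73 as well, so genes of other cells were read on the same arrays. The T cell list (14 of 18 genes measured) had a mean level of 7.04 to 7.25 in wild-type, 7.17 to 7.71 in floxed and 7.08 to 7.39 in delta arrays, with floxed 1 and floxed 3 highest, the arrays in which Cd27 was high. Cd3e, a chain of the T cell receptor complex, was at 8.48, 7.65 and 8.36 in floxed 1, 2 and 3, against 7.38 to 7.85 in the other arrays, and Cd8b1 was at 8.0, 6.77 and 7.59 in the same order. In floxed 2, the floxed array with the highest Nt5e and Cd80, the T cell mean was 7.17, and in delta 4, the delta array with the highest Nt5e and Cd80, it was 7.39, the highest of the delta arrays. Cd3g was at 8.49, 7.36 and 8.38 in floxed 1, 2 and 3 and at 8.75 in delta 4. In the other arrays it was at 6.15 to 7.06. Cd3d and Cd8a, at 5.65 and 6.54 in delta 4, were lowest there among the delta arrays.

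The NK cell list (13 genes) had means of 5.47 to 5.63 in wild-type, 5.71 to 6.10 in floxed and 5.48 to 5.81 in delta arrays. The regulatory T cell list (7 genes) lay between 7.06 and 7.30 in all arrays, and the erythroid list (8 of 12 genes) at 7.37 to 7.79, 7.90 to 8.30 and 7.16 to 7.81 in wild-type, floxed and delta. Plasma cell genes (11) lay at 8.46 to 8.61 in wild-type, 8.70 to 8.77 in floxed and 8.55 to 8.64 in delta arrays. In floxed against wild-type 8 of the 11 were higher and 3 lower, with Jchain at 1.64 and Sdc1 at -0.51 log2 units. Germinal centre genes (10 of 11) lay between 6.93 and 7.57 over all arrays.

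In the myeloid list (17 of 18 genes) some genes moved with Nt5e and Cd80 and others did not. The list mean was 6.65 to 6.70 in wild-type, 6.89 to 7.20 in floxed and 6.75 to 7.20 in delta arrays. Delta 4 was the highest delta array. In floxed against wild-type 10 of the genes were higher and 7 lower, with a median difference of 0.065. In delta against wild-type 9 were higher and 8 lower, with a median of 0.008. Adgre1, the macrophage marker F4/80, was at 7.50, 7.81 and 7.09 in wild-type and 9.20, 9.83 and 9.11 in floxed arrays, and at 8.69, 8.06, 8.38 and 10.15 in delta arrays. Itgax, the integrin chain CD11c that some activated B cells also carry, was at 6.44 to 6.84, 8.19 to 9.22 and 7.06 to 9.39 in the same groups. Csf1r, the macrophage growth factor receptor, was at 6.81 to 6.99 in wild-type, 6.58 to 6.90 in floxed and 6.42 to 6.86 in delta arrays, all within the range of the other-tissue genes. Itgam, the integrin chain CD11b of myeloid cells, was at 6.18, 6.49 and 6.54 in wild-type, 7.40, 7.90 and 7.25 in floxed and 6.91, 6.61, 6.83 and 8.58 in delta arrays, highest in floxed 2 and delta 4 like Nt5e. The B1 cell list (10 genes) holds genes of innate-like B cells. Its means were 7.91 to 8.07 in wild-type, 8.52 to 8.65 in floxed and 8.12 to 8.74 in delta arrays. Limma called 1 of its 10 genes, Anxa2, as 0.65 higher in delta than in wild-type arrays (adjusted p = 0.0427). Over all genes 0.0752% were called there. The call of Anxa2 was lost in 11 of 23 alternatives (adjusted p from 0.0155 to 0.218). Anxa2 was also 1.02 higher in floxed than in wild-type arrays. Both differences use the same wild-type arrays, so the call does not stand apart from the floxed difference. In RNA from a sorted population, a larger number of cells that express a gene and more RNA per cell cannot be told apart, and the part of other cell types in the levels of Nt5e, Cd80 and Cd27 was not tested.

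**Figure D2:**
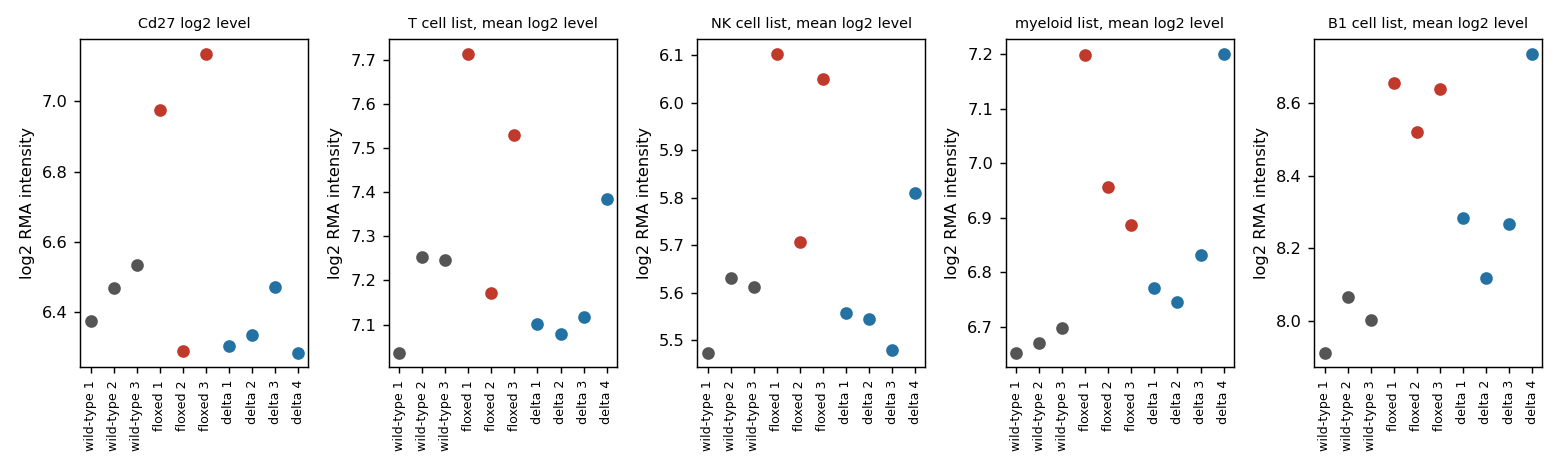
Level of Cd27 and mean level of the T cell, NK cell, myeloid and B1 cell lists (log2 RMA intensity, vertical axes differ) on each array, grey for wild-type, red for floxed and blue for delta. Cd27 and the T cell and NK cell means are highest in floxed 1 and floxed 3, while the myeloid and B1 cell means are also high in delta 4.

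Counted over the members, limma called 0 of 8 in delta against wild-type, where 15 of 19937 genes (0.0752%) were called, 0.0301% higher and 0.0451% lower. At an unadjusted p under 0.05, 6 of 8 members were higher and 0 lower, where 7.89% of all genes passed, 3.46% higher and 4.44% lower. In 4 of 8 members (Nt5e, Entpd1, Ada and Cd80) every delta array lay above every wild-type array, which held for 3.75% of all genes, and the reverse held for 0 members and 5.5% of genes. For Cd80 this held in the probe set used in the fit and not in the further one, 10435712. The median difference was 0.36 over the members and -0.01 over all genes. This comparison shares its wild-type arrays with the one known when the genes were chosen. In floxed against wild-type the groups did not overlap for 4 members, all higher (Nt5e, Entpd1, Cd80 and Cd86), where 7.6% of all genes were higher and 9.13% lower in that way, and the medians were 0.42 and -0.02.

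Delta against floxed compares these genes between mice with the transgene crossed to mb1-Cre and mice with the intact transgene. The presence of Cre differs too, and so does the sex pattern of delta 2, 3 and 4. The parts of transgene, Cre and sex cannot be told apart in this comparison. Limma called 0 of 8 members, where 1 of 19937 genes (0.00502%) was called, and 1 member, Cd27, was lower at an unadjusted p under 0.05, as were 3.2% of all genes. The groups overlapped in all 8 members, where 3.36% of genes lay wholly higher and 3.61% wholly lower. Nt5e differed by -0.56 (95% CI -1.39 to 0.26, adjusted p = 0.847) and Cd80 by -0.38 (95% CI -1.21 to 0.46, adjusted p = 0.899). These intervals hold both no difference and a more than 2-fold lower level in delta arrays, so these arrays do not show that floxed and delta B cells carry the same amount. For the others the intervals were narrower, from -0.28 to 0.35 for Cd86, -0.07 to 0.32 for Ada, -0.43 to 0.21 for Pdcd1lg2, -0.42 to 0.13 for Entpd1 and -0.51 to 0.27 for Cd44. Among arrays of male pattern, delta 1 lay 1.19 below the mean of the 3 floxed arrays in Nt5e and 0.91 below it in Cd80, and rests on 1 delta array.

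**Figure D3:**
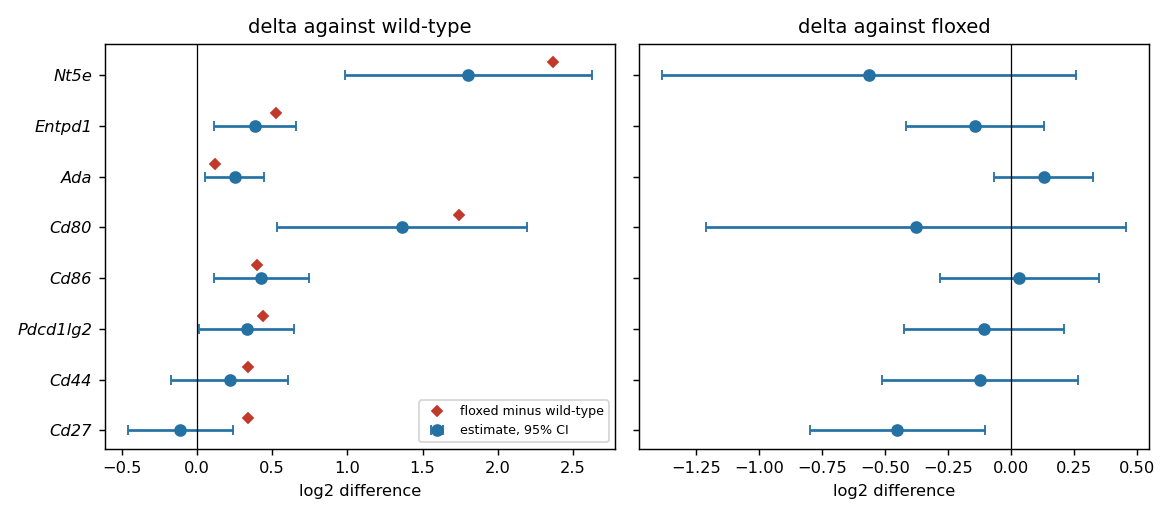
Log2 difference of each measured member with its 95% CI from limma (blue points and bars) in delta against wild-type (left) and delta against floxed (right), with floxed minus wild-type as red diamonds without a test. Nt5e and Cd80 have the largest differences from wild-type and the widest intervals.

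The arrays in which the members were high were largely shared. Delta 4 was the highest delta array for 6 of 8 members and the lowest for the other 2, Ada and Cd27. Floxed 2 was the highest floxed array for 6 of 8 members, the exceptions being Entpd1 and Cd27. The share of all genes with these arrays highest is not given here, so the counts are a description only. Delta 4 also had the most genes, 27 of 19937, at least 1 log2 unit above all other delta arrays. Nt5e was 1.69 higher in delta 4 than the mean of delta 1 to 3, and Cd80 was 1.68 higher, while Cd44, Pdcd1lg2, Entpd1 and Cd86 were 0.45, 0.41, 0.41 and 0.39 higher.

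The genes whose profiles over the 10 arrays lay nearest to that of Nt5e were found among 18708 genes as those with the smallest root mean square difference, after each gene was centred on its own mean. They were Fgl2, a fibrinogen-like protein gene (0.17 log2 units), the inhibitory receptor gene Lilrb4a (0.29), the T-bet gene Tbx21 (0.29) and Cd80 (0.30). Nearest to Cd80 were Fcer1g, the common gamma chain of Fc receptors (0.25), the BMP receptor gene Bmpr1a (0.26), Lilrb4a (0.28) and Nt5e (0.30). The points share 10 arrays in 3 groups, and these nearest genes were all lowest in wild-type and high in floxed 2 and delta 4. They were picked for likeness to Nt5e or Cd80, so sharing this pattern follows from the pick. Fgl2 was at 6.17 to 6.71 in wild-type, 8.45 to 9.52 in floxed and 7.41 to 7.92 in delta 1 to 3, and at 9.39 in delta 4. Bmpr1a was at 5.22 to 5.55 in wild-type, 7.07 to 7.78 in floxed and 6.09 to 6.64 in delta 1 to 3, and at 8.71 in delta 4.

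**Figure D4:**
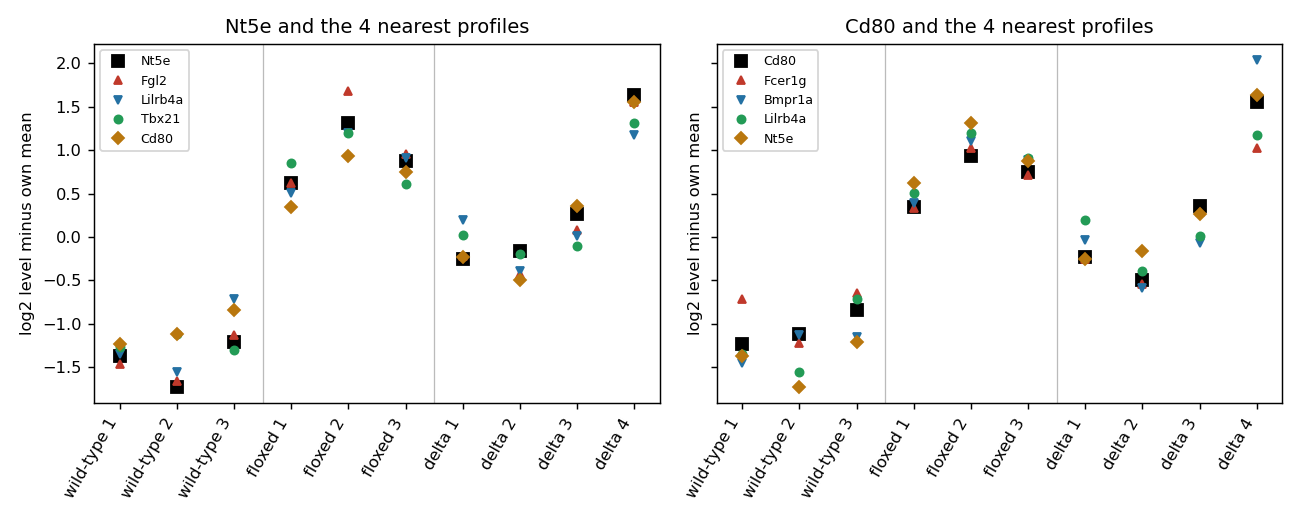
Level of Nt5e (left) and Cd80 (right) as black squares with the 4 genes of nearest profile, each minus its own mean over the 10 arrays (log2 units); thin vertical lines separate wild-type, floxed and delta arrays. All of these genes are lowest in wild-type arrays, which follows from their choice by likeness, and delta 4 is at or above the floxed arrays in Nt5e and Cd80.

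The wider adenosine pathway held no called gene. Of 34 further genes for adenosine and nucleotide handling 27 were measured, and limma called 0 in each of the 3 comparisons. At an unadjusted p under 0.05, floxed against wild-type had 2 of them higher and 4 lower, where 6.14% and 6.63% of all genes were. Delta against wild-type had 1 higher and 2 lower (3.46% and 4.44% of all genes), and delta against floxed had 2 higher and 1 lower (3.22% and 3.2%). Adk, the kinase that returns adenosine to AMP inside cells, was at 7.91, 7.84 and 8.11 in wild-type, 8.39, 8.58 and 8.63 in floxed and 8.88, 8.71, 8.90 and 9.93 in delta arrays, so the 3 groups did not overlap. Its difference in delta against wild-type was 1.15 (SE 0.23, limma adjusted p = 0.154) and in delta against floxed 0.58 (adjusted p = 0.744). Dpp4, a peptidase that binds adenosine deaminase at the cell surface, was at -0.32 in floxed against wild-type (adjusted p = 0.0745) and at -0.27 in delta against wild-type (adjusted p = 0.213). Alpl, a phosphatase that can also release adenosine from AMP, was at -0.43 in floxed against wild-type (adjusted p = 0.262). Entpd4, a relative of Entpd1 inside the cell, was at -0.44 in delta against floxed (adjusted p = 0.719), and Entpd3 at 0.20 (adjusted p = 0.731).

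Of 16 receptors and channels for ATP and ADP, all measured, 0 passed the limma threshold in any comparison, and at an unadjusted p under 0.05 there were 3 higher in floxed against wild-type (6.14% of all genes), 1 higher in delta against wild-type (3.46%) and 0 in delta against floxed (3.22%), with none lower (6.63%, 4.44% and 3.2% of all genes). The channel gene P2rx4 was at 0.26 in floxed against wild-type (adjusted p = 0.181) and the receptor gene P2ry13 at 0.48 (adjusted p = 0.267). In delta against wild-type P2ry14 was at 0.14 (adjusted p = 0.623) and P2rx4 at 0.16 (adjusted p = 0.643). In delta against floxed P2ry13 was at -0.33 (adjusted p = 0.787) and P2rx1 at 0.16 (adjusted p = 0.847).

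Among 16 genes of the B7 ligands, their receptors and CD70, Ctla4 is left out of the calls in floxed against wild-type, for a reason given below. Of the others limma called only Rgmb there, where 0.552% of all genes were called, and 14 did not pass. Rgmb, which encodes a BMP co-receptor that also binds PD-L2, rose by 0.86 (SE 0.14, limma adjusted p = 0.0282, lost in 7 of 22 alternatives, up to 0.484), from 7.64 to 8.21 in wild-type to 8.54 to 8.83 in floxed arrays. It was at 8.55 to 8.82 in delta arrays, 0.82 above wild-type (adjusted p = 0.0664). Ctla4, the inhibitory receptor of CD80 and CD86, was 0.78 higher in floxed than in wild-type arrays, a difference known when the list was written and given without a test, and was 0.46 higher in delta than in wild-type arrays (adjusted p = 0.289). In delta against floxed none passed, with Cd28, the activating receptor of the same ligands and a T cell gene, at -0.56 (adjusted p = 0.563) and Icos at -0.31 (adjusted p = 0.721). Unadjusted p under 0.05 was met there by 1 higher and 4 lower (3.22% and 3.2% of all genes), and in delta against wild-type, where none passed, by 2 higher and 2 lower (3.46% and 4.44%).

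Of 18 genes that work with CD38 or CD44, 15 were measured. Bst1, the relative of Cd38 that also cleaves NAD, fell by 0.51 in floxed against wild-type (SE 0.10, limma adjusted p = 0.0453) and 14 did not pass. That call was lost in 11 of 22 alternatives, with adjusted p from 0.0374 to 0.365. Bst1 was at 6.49 to 6.79 in wild-type, 6.04 to 6.23 in floxed and 6.16 to 6.46 in delta arrays, close to the level of other-tissue genes, and delta against wild-type gave -0.33 (adjusted p = 0.317). None of the list passed in delta against wild-type or delta against floxed; at an unadjusted p under 0.05, 2 were higher and 2 lower in the first (3.46% and 4.44% of all genes) and 0 in the second (6.42%). Nampt, an enzyme of NAD synthesis, was at 0.25 in delta against wild-type (adjusted p = 0.516). In delta against floxed Bst1 was at 0.18 (adjusted p = 0.794) and the integrin gene Itgb1 at -0.41 (adjusted p = 0.847).

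Memory B cell regulators and other memory surface genes formed a list of 22, with 21 measured. The chemokine receptor gene Cxcr3 and Tbx21 were known to be higher in floxed than in wild-type arrays when the list was written, so their differences there, 2.04 and 2.11, are given without a test. Of the other 19 measured genes none passed in that comparison. In delta against wild-type Cxcr3 rose by 1.62 (SE 0.23, limma adjusted p = 0.0444) and 20 did not pass, where 0.0752% of all genes were called. At an unadjusted p under 0.05, 6 genes of the list, with Cxcr3 counted, were higher there and 1 lower (3.46% and 4.44% of all genes). The call of Cxcr3 was lost in 16 of 23 alternatives, with adjusted p from 0.00611 to 0.211 and a difference of 1.52 to 1.84. This comparison shares its wild-type arrays with the one in which Cxcr3 was known to differ. Cxcr3 was at 7.33, 7.26 and 7.03 in wild-type, 9.09, 9.72 and 8.93 in floxed and 9.07, 8.16, 8.94 and 9.12 in delta arrays. Delta 4 did not stand out in Cxcr3 as it did in Nt5e and Cd80. In delta against floxed none passed and none had an unadjusted p under 0.05 (6.42% of all genes), with Tbx21 at -0.63 (adjusted p = 0.787) and the repressor gene Bach2 at 0.20 (adjusted p = 0.794).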

How the data were processed

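Per the submitters' processing notes the authors used RMA, and each probe set's deposited intensity is on a linear scale, from 4.46 to 26808. Log2 was taken here. Software, version and genome build were not given in the sources used here. Of 34760 probe sets, 21640 carried 1 gene symbol (GEO's platform annotation), 1321 several and 11799 none. Probe sets with 1 symbol were kept, and the probe set with the highest mean stood for each of the 954 genes with several, which left 19937 genes.

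All 10 arrays were fitted with limma 3.58.1 in R 4.3.3 (lmFit with a mean per group, eBayes with 4.32 prior and 11.3 total degrees of freedom). Two-sided p-values were adjusted by Benjamini-Hochberg over the 19937 genes, and 0.05 was the threshold. The fit was tried on simulated data for delta against wild-type with 19937 genes and normal noise at each gene's own SD within groups. It called 97% of genes changed by 1 log2 unit and 100% of those changed by 2. The changed genes were drawn at random, so these percentages need not hold for genes of wide spread. Nt5e and Cd80, with an SD of 0.87 and 0.91 over the delta arrays, are of that kind. The number of arrays limits the precision.

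The members and lists were chosen with earlier results of these data known. Named genes were the members, up to 4 called genes of each pathway list or else the 2 of smallest p, defining genes of other cell types and the 4 profiles nearest to Nt5e and to Cd80. Alternatives were fixed with the design; the motifs, Csf1r and the listing of further genes as values came after the levels were seen.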

Additional observations from a re-analysis of the deposited data

Results flagged for a closer look

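Of 24 sets of delta levels examined (9 probe sets of the members and 15 gene list means), 1 held an array far from the others, and chance gives about 1 such set in 20. The mean level of the T cell list was 7.39 in delta 4, against 7.12 for the next delta array, a gap of 0.874 of the whole range, past Dixon's 95% critical value for 4 samples. Within that list Cd3g was at 8.75 in delta 4 against 6.15 to 6.72 in the other delta arrays. Cd3e was at 7.82 against 7.38 to 7.45, and Cd8b1 at 6.77 against 6.57 to 6.60. Other genes of the list went the other way. Cd3d, at 5.65 against 5.67 to 5.83, and Cd8a, at 6.54 against 6.55 to 6.57, were lowest in delta 4. The levels of Nt5e and Cd80 in delta 4, with gaps of 0.725 and 0.584 of the range, stayed below the critical value.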

How the results depend on the processing

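In delta against wild-type every member kept its direction under each alternative, and Nt5e without delta 4 was the sole member to pass the threshold; in delta against floxed, Cd27 without floxed 2 was. Reversals were small: Ada in floxed against wild-type went to -0.037 with sex as a covariate, Ada in delta against floxed to -0.014 with the T cell covariate, and Cd44 there to 0.038 with sex as a covariate. Cd86 in delta against floxed went to -0.060 with array weights, -0.066 with the replicate block and -0.039 with sex as a covariate. Leaving out 1 array took Cd86 there from -0.066 to 0.16 and Cd44 from -0.23 to 0.0078.

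With sex as a covariate Nt5e and Cd80 in floxed against wild-type moved to 3.21 and 2.44, an estimate that rests on delta 1. In floxed against wild-type 110 genes were called (78 higher, 32 lower), against 178 (148 higher, 30 lower) with centring on array medians, 208 with array weights, 193 with the 2 groups alone, 11 with the T cell covariate, 2 with the sex covariate and 18 to 240 without 1 array (24 and 18 without wild-type 1 and 2, 46, 37 and 25 without floxed 1, 2 and 3, 67 without delta 3 and 240 without delta 4). In delta against wild-type 15 were called (6 higher, 9 lower), against 3 (2 higher, 1 lower) with centring, 3 with the sex covariate, 1 among arrays of female pattern, and 0 with every probe set kept or the 2 groups alone. Without 1 array the count ran from 0 to 23: 0 without wild-type 1 or 2, floxed 1 or 3, or delta 3, then 3 without delta 1, 9 without floxed 2 and 23 without wild-type 3. In delta against floxed 1 was called, against 2 with a variance trend or the 2 groups alone and 1 to 10 without 1 array (2 without wild-type 1, floxed 1 or floxed 3, 5 without floxed 2, 10 without delta 1 and 4 without delta 4). Same-numbered arrays did not deviate together (1 of 9 correlations of deviations over 0.1, range -0.08 to 0.12), and with the replicate block the counts were 188, 6 and 2 in the 3 comparisons. Nt5e in delta against wild-type was 1.38 with the replicate block (adjusted p = 0.0609). Cd27 in all arrays and Nt5e in wild-type arrays lie within the range of the other-tissue genes. Calls of Cxcr3, Anxa2, Rgmb and Bst1 were lost in 16 of 23, 11 of 23, 7 of 22 and 11 of 22 alternatives. Not all alternatives are separate checks. For Cxcr3 and Anxa2 in delta against wild-type, the sex covariate gave the same result as leaving out delta 1. The replicate block gave the same difference, with another SE, as leaving out delta 4.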
